A study of Mus musculus with 6 samples.

Results

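The 44 genes described here encode nucleolar factors of ribosome biogenesis, from the transcription of ribosomal RNA to the assembly of both ribosomal subunits. They were chosen by name from their known roles, at a time when earlier results of these data were known, and the rule itself uses no measured value. All 44 were found among the 16729 genes of the deposited count table. By role, 7 act in transcription by RNA polymerase I (Pol I) and 8 in small nucleolar ribonucleoproteins (snoRNPs). A further 12 act in assembly of the small subunit and 11 in assembly of the large subunit, and 6 are nucleolar chaperones or proteins with several roles.

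Ribosomes are built in the nucleolus. Pol I transcribes a long ribosomal RNA precursor, snoRNPs guide its methylation and pseudouridylation, and large protein complexes fold and cut it while ribosomal proteins join. The genes for these factors are well known targets of the transcription factor Myc, which binds DNA at the E-box CACGTG together with Max, and growing tumor cells need many new ribosomes.

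Expression was measured by RNA-seq in intracranial tumors of the glioma line mG7080 of mouse, in 3 tumors that grew in Esm1 WT hosts (libraries WT 1 to WT 3) and 3 that grew in Esm1 KO hosts (libraries KO 1 to KO 3). Esm1 encodes Endocan, a proteoglycan that endothelial cells secrete. The hosts were C57BL/6 females, aged 6 to 8 weeks according to the methods and somewhat older according to the reporting summary, and the deletion was present throughout the host but not in the injected cells. All 6 tumors came from the same gliomasphere line, which was derived from a genetically engineered mouse glioma, so they share its genotype. RNA came from frozen tumor tissue, in which tumor cells and host cells were mixed, and in such bulk RNA fewer cells of a type and less RNA per cell cannot be told apart. The labels number the tumors within a group but say nothing about separate litters or days, so p-values measure only the spread between these tumors.

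Gene counts summed to between 17632070 and 22241832 per library. Reads on Esm1 itself numbered 25, 21 and 82 in WT 1, WT 2 and WT 3, and 1, 24 and 4 in KO 1, KO 2 and KO 3. Esm1 reads in the library labelled KO 2 were thus about as many as in WT 1 and WT 2. The injected cells did not carry the deletion. In human material, the paper found almost no Endocan in medium of gliomasphere lines, and in tumors it found Endocan only with endothelial cells. Which cells the reads in KO 2 came from, and whether its label is right, was not tested. The study's own result table lists only 4 libraries (KO 1, KO 3, WT 1 and WT 2) and gives no reason, while according to the reporting summary nothing was excluded. Because of this shorter table, results are given over all 6 libraries of the labels and, beside them, over the 4 libraries it lists. Levels are given as CPM, the count of a gene scaled to a common library size with TMM factors. Differences are given as log2 fold changes (KO minus WT) with their standard error (SE). A gene was called at an adjusted p under 0.05 in edgeR's quasi-likelihood test, where p-values of all genes tested were adjusted together by the Benjamini-Hochberg method. The words fell and rose are kept for genes called lower or higher in KO, and a gene that did not fall can still have a lower mean.

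Because Myc and its E-box are tied to these genes as background knowledge, the promoters were searched for CACGTG, which reads the same on both strands. A RefSeq promoter (GRCm38.p6, 250 bases before to 50 bases after the start site) was found for 39 of the 44 genes, and not for Tcof1, Fbl, Rrp12, Bop1 and Npm1. The E-box was present in 8 of the 39 (20.5%), beside 11.05% of the 11964 tested genes with a promoter and 8.09% of all 27025 genes of that table. By role, it was found in 1 of 6 Pol I genes (Rrn3, with 2 E-boxes), 0 of 7 snoRNP genes, 4 of 11 small subunit genes (Wdr43, Utp18, Utp20 and Ltv1), 3 of 10 large subunit genes (Pes1, Nop2 and Nle1) and 0 of 5 chaperone genes. The promoters of the 3 E-box holders with the lowest log2 fold change over 6 libraries are shown, each read 5′ to 3′ on the strand of its gene with the E-box in capitals. They run from 250 bases before to 30 bases after the start site, and lie at chr11:93885737-93886016 (minus strand) for Utp18, chr6:125131633-125131912 (plus strand) for Nop2 and chr17:71615965-71616244 (plus strand) for Wdr43.
Utp18: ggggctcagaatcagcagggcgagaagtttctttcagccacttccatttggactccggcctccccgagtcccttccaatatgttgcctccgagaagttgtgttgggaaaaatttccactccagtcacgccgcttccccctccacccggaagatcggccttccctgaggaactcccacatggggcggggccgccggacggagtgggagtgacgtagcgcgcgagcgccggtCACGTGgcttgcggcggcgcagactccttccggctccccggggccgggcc
Nop2: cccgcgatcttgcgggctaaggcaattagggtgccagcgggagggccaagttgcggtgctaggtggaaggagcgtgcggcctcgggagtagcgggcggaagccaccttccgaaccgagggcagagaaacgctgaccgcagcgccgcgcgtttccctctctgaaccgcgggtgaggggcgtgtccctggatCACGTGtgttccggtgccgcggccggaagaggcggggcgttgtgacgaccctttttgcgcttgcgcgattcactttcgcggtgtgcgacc
Wdr43: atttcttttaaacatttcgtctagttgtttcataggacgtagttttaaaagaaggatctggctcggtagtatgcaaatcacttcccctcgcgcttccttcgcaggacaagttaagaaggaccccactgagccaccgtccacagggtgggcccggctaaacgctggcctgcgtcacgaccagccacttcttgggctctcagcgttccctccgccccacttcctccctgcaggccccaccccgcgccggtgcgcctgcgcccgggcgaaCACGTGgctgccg
The E-box is centred at position -17 in Utp18, -57 in Nop2 and 20 in Wdr43, counted from the start site. A match is a description of these letters and does not show that a factor binds there. The median log2 fold change was -0.95 in the 8 genes with an E-box and -0.95 in the 31 without over 6 libraries, and -1.33 and -1.31 over 4 libraries.

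Most nucleolar genes were lower in the tumors KO 1 and KO 3 than in every WT tumor, in all 5 role groups, whereas KO 2 lay inside or just below the WT range. Of the 44 genes, 41 were lower in each of KO 1 and KO 3 than in every WT library, beside 40.4% of all genes tested, and the exceptions were Rrn3, Ubtf and Rrp12. Summed over the 44 genes, the level was 4184, 6411 and 5608 CPM in the WT libraries (always in the order WT 1, WT 2, WT 3) and 2101, 4092 and 2029 CPM in the KO libraries (in the order KO 1, KO 2, KO 3). The mean sum was 5401 ± 1128 CPM in WT and 2741 ± 1171 CPM in KO (SD, n = 3), a ratio of 1.97, and the ratio was 2.57 over the 4 libraries. WT 1 was the lowest WT library for 44 of 44 genes, WT 2 the highest for 42, and KO 2 the highest KO library for 42. The gap between WT 1 and KO 2 was small, since the median log2 ratio to the WT mean was -0.33 in WT 1 and -0.35 in KO 2, against -1.28 in KO 1 and -1.32 in KO 3.

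**Figure D1:**
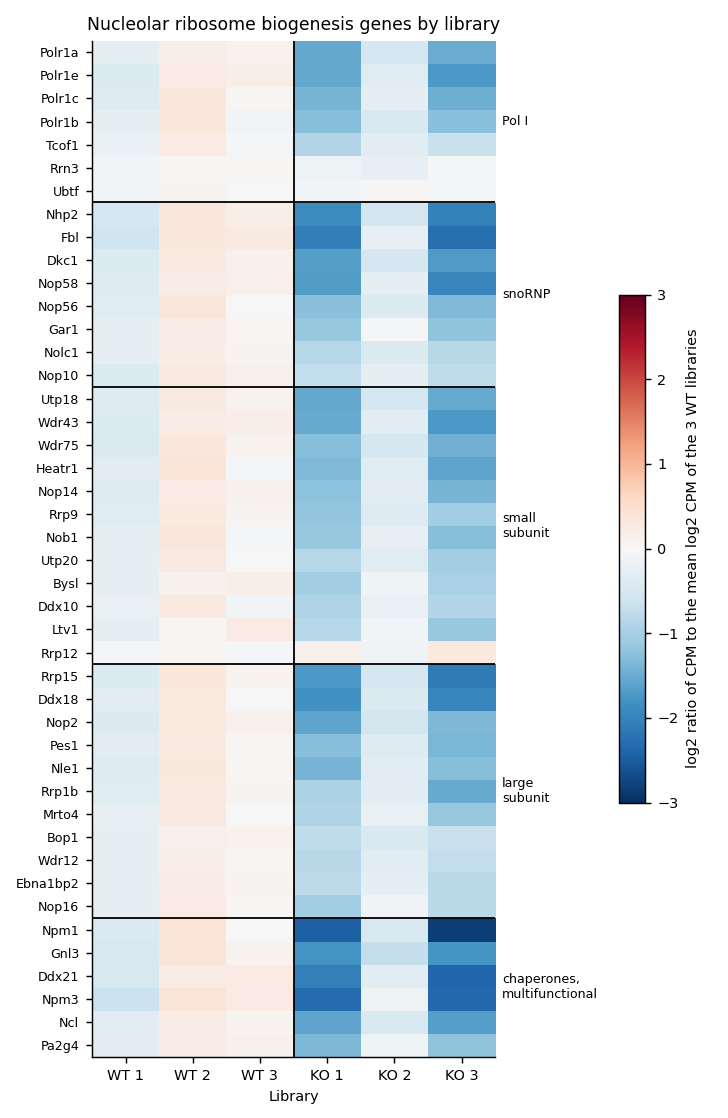
Log2 ratio of CPM to the mean log2 CPM of the 3 WT libraries for each of the 44 genes (rows, grouped by role) in each library (columns), with blue for lower and red for higher. The columns KO 1 and KO 3 are blue except at Rrn3, Ubtf and Rrp12, and the column KO 2 resembles WT 1.

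Over all 6 libraries, 43 of the 44 genes had a log2 fold change below 0 (42 under RLE scaling, where Ubtf was above 0) and 1 (Rrp12) above 0, but none was called. The lowest adjusted p of the 44 was 0.184 (edgeR's quasi-likelihood test), and 0 of 16166 genes tested were called in either direction (0%). At an unadjusted p under 0.05, 31 of the 44 were lower in KO and 0 higher, beside 11.9% of all genes tested that were lower. Every KO library lay below every WT library for 21 of the 44, beside 14.8% of all genes. KO 2 alone lay below every WT library for 23 of the 44, beside 22.6% of all genes, within the WT range for 21 and above it for 0. The median log2 fold change of the 44 was -0.95, and that of all genes tested was -0.02. Other tests of the same 6 libraries gave few calls: DESeq2 called 6 of the 44 lower (Polr1a, Nolc1, Wdr75, Bop1, Nop2 and Gnl3), beside 2.8% of all genes, and edgeR's exact test called 0 of the 44, beside 0.285% of all genes. Without KO 2, the quasi-likelihood test over the remaining 5 libraries called 41 of the 44 lower, beside 28.3% of all genes, and those not called were Rrn3, Ubtf and Rrp12.

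Over the 4 libraries of the study's table, 43 of the 44 genes had a log2 fold change below 0. Of the 44, 29 fell (65.9%), beside 13.9% of all 16183 genes tested, and 0 rose, beside 2.87%. The median log2 fold change was -1.32, and that of all genes was -0.03. By role, 4 of 7 Pol I genes, 6 of 8 snoRNP genes, 8 of 12 small subunit genes, 5 of 11 large subunit genes and 6 of 6 chaperone genes fell. Of the 15 that were not called, 12 had an adjusted p under 0.1 in edgeR's quasi-likelihood test, and the others were Rrn3, Ubtf and Rrp12. A fold change above 4 together with the adjusted p was reached by 4 of the 44 genes (Npm1, Npm3, Ddx21 and Fbl), all lower in KO. Of the 16081 genes tested in both comparisons, 1008 were lower at these thresholds. These calls rest on few tumors, since 5 of the 44 were called without KO 1 (beside 5.62% of all genes), 0 without KO 3 (1.54%), 41 without WT 1 (27.5%) and 30 without WT 2 (12.5%). Each of these fits holds a lone library in 1 group, which is assumed to vary like the others.

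**Figure D2:**
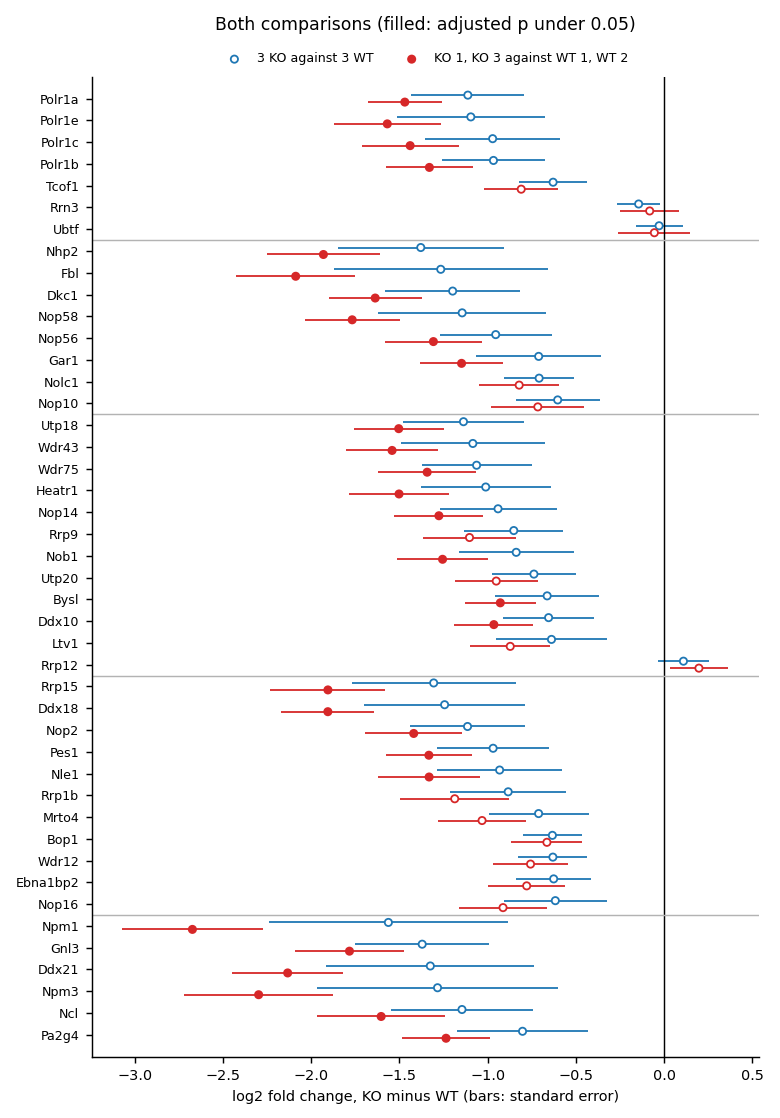
Log2 fold change (KO minus WT) with its SE for each of the 44 genes over 6 libraries (blue) and over the 4 libraries of the study's table (red), with filled points where the adjusted p was under 0.05. No blue point is filled, 29 red points are filled, and Rrn3, Ubtf and Rrp12 lie near 0 in both.

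Among the 7 genes of Pol I transcription, the genes for subunits of the enzyme were lower in KO 1 and KO 3, while 2 of its initiation factors were at like levels in all 6 libraries. The median log2 fold change of the group was -0.97 over 6 libraries and -1.33 over 4. Polr1a (chr6:71909053-71979435) encodes the largest, catalytic subunit. It was at 106, 144 and 139 CPM in the WT libraries and at 44.3, 89.9 and 45.8 CPM in KO 1, KO 2 and KO 3, so that the groups did not overlap. Its log2 fold change was -1.11 (SE 0.32, edgeR adjusted p = 0.184) over 6 libraries and -1.47 (SE 0.21, edgeR adjusted p = 0.0343) over 4. Polr1b (chr2:129100970-129128060), the other subunit of the catalytic centre, was at 45.9, 70.3 and 52.7 CPM in WT and at 22.7, 40.4 and 23.3 CPM in KO. These groups did not overlap either, and the log2 fold change was -0.97 (SE 0.29, edgeR adjusted p = 0.184) over 6 libraries and -1.33 (SE 0.25, edgeR adjusted p = 0.0368) over 4. Polr1c, a subunit shared with Pol III, and Polr1e, a subunit that Pol I alone holds, fell over 4 libraries by 1.44 and 1.57 on the log2 scale, while their 6-library log2 fold changes of -0.97 and -1.10 were not called. Tcof1 encodes treacle, which acts in transcription and modification of ribosomal RNA, and was at 60.6, 81.7 and 66.9 CPM in WT and at 37.5, 54.4 and 43.4 CPM in KO. Every KO value of Tcof1 was below every WT value, but its log2 fold change of -0.63 (SE 0.19, edgeR adjusted p = 0.184) over 6 libraries and -0.81 (SE 0.21, edgeR adjusted p = 0.0562) over 4 did not pass.

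Rrn3 and Ubtf stood apart from the enzyme. Rrn3 (chr16:13780699-13814841), the initiation factor that joins Pol I to its promoter, was at 73.1, 81.6 and 79.3 CPM in WT and at 69.8, 65.9 and 76.0 CPM in KO. Its groups overlapped, and the log2 fold change was -0.14 (SE 0.12, edgeR adjusted p = 0.386) over 6 libraries and -0.08 (SE 0.17, edgeR adjusted p = 0.713) over 4. Ubtf, the HMG-box protein UBF that covers active ribosomal DNA, was at 186, 208 and 196 CPM in WT and at 186, 200.4 and 192 CPM in KO. No library stood out in it, and its log2 fold change was -0.03 (SE 0.13, edgeR adjusted p = 0.879) over 6 libraries and -0.05 (SE 0.20, edgeR adjusted p = 0.844) over 4, a difference whose sign changed under RLE scaling of the 6 libraries and with WT 2 left out. A p that misses the threshold does not show that these levels are equal.

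The snoRNP genes had a median log2 fold change of -1.05 over 6 libraries and -1.47 over 4. All 8 had a log2 fold change below 0 over 4 libraries, and all but Nop10 and Nolc1 were called. Fbl encodes fibrillarin, the methyltransferase of box C/D snoRNPs, which methylate the sugar of target bases. It was at 38.6, 71.7 and 70.3 CPM in WT and at 13.7, 49.2 and 12.1 CPM in KO, with KO 2 inside the WT range and above WT 1. Its log2 fold change was -1.27 (SE 0.61, edgeR adjusted p = 0.20) over 6 libraries and -2.09 (SE 0.34, edgeR adjusted p = 0.0343) over 4. Nop56 (chr2:130274367-130279313) and Nop58 encode the scaffold proteins of the same particles. Nop56 was at 133, 217 and 173 CPM in WT and at 71.9, 129 and 68.8 CPM in KO, without overlap, with a log2 fold change of -0.95 (SE 0.32, edgeR adjusted p = 0.184) over 6 libraries and -1.31 (SE 0.28, edgeR adjusted p = 0.0428) over 4. Nop58 was at 103, 157 and 149 CPM in WT and at 42.1, 109 and 33.8 CPM in KO, with KO 2 above WT 1, and its log2 fold change was -1.14 (SE 0.48, edgeR adjusted p = 0.184) and -1.77 (SE 0.27, edgeR adjusted p = 0.0343). Fbl and both scaffold genes thus fell over 4 libraries, and none of the 3 was called over 6.

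In the box H/ACA particles, which carry out pseudouridylation, KO 1 and KO 3 were again the lowest libraries for every gene. Dkc1 encodes dyskerin, the pseudouridine synthase, and was at 84.0, 134 and 122 CPM in WT and at 35.5, 78.3 and 34.3 CPM in KO. Its groups did not overlap, and the log2 fold change was -1.20 (SE 0.38, edgeR adjusted p = 0.184) over 6 libraries and -1.64 (SE 0.26, edgeR adjusted p = 0.0343) over 4. Nhp2, an RNA-binding core protein of the particle, had the lowest 6-library log2 fold change of the snoRNP genes. It was at 96.3, 177 and 159 CPM in WT and at 37.2, 94.8 and 34.1 CPM in KO, and its log2 fold change was -1.38 (SE 0.47, edgeR adjusted p = 0.184) over 6 libraries and -1.93 (SE 0.32, edgeR adjusted p = 0.0343) over 4. Gar1, a further core protein, had a log2 fold change of -0.71 over 6 libraries, which was not called, and fell by 1.15 over 4, with KO 2 at 39.8 CPM inside the WT range of 33.9 to 48.2 CPM. Nop10, the smallest core protein of these particles, had the highest log2 fold change of the group. It was at 34.5, 55.4 and 50.03 CPM in WT and at 27.3, 37.6 and 27.2 CPM in KO, and its log2 fold change of -0.60 (SE 0.24, edgeR adjusted p = 0.184) over 6 libraries and -0.72 (SE 0.26, edgeR adjusted p = 0.0963) over 4 did not pass. Nolc1 encodes Nopp140, a chaperone of snoRNPs, and was at 115, 165 and 149 CPM in WT and at 77.8, 105 and 79.9 CPM in KO. Its groups did not overlap, and its log2 fold change was -0.71 (SE 0.20, edgeR adjusted p = 0.184) over 6 libraries and -0.82 (SE 0.23, edgeR adjusted p = 0.0623) over 4.

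The 12 genes of small subunit assembly encode parts of the small subunit processome, the particle that forms on the nascent precursor, and factors that mature and export it. Their median log2 fold change was -0.84 over 6 libraries and -1.18 over 4, where 8 of 12 fell. Utp18, whose promoter is shown above, was the lowest of them over 6 libraries. It was at 60.0, 94.9 and 85.2 CPM in WT and at 27.0, 54.8 and 27.4 CPM in KO, without overlap, and its log2 fold change was -1.14 (SE 0.34, edgeR adjusted p = 0.184) over 6 libraries and -1.50 (SE 0.26, edgeR adjusted p = 0.0344) over 4. Wdr43, Wdr75 and Heatr1 belong to the subcomplex that joins the precursor early, and all 3 fell over 4 libraries, by 1.54, 1.34 and 1.502 on the log2 scale, beside uncalled values of -1.08, -1.06 and -1.01 over 6. Nop14 and Nob1, of which Nob1 is the nuclease that frees the end of the small subunit RNA, fell by 1.28 and 1.26 over 4 libraries, beside uncalled values of -0.94 and -0.84 over 6. The helicase gene Ddx10 and Bysl, which encodes bystin, fell by 0.96 and 0.93 over 4 libraries, beside uncalled values of -0.65 and -0.66 over 6. The log2 fold changes of Rrp9 (-1.10), Utp20 (-0.95) and Ltv1 (-0.87) over 4 libraries did not pass (edgeR adjusted p = 0.0504, 0.0519 and 0.0569), nor did those of -0.85, -0.74 and -0.64 over 6. Rrp12, which acts in late maturation and export, was the only gene of the 44 with a higher mean in KO. It was at 44.9, 48.5 and 45.4 CPM in WT and at 50.2, 43.0 and 56.7 CPM in KO, with KO 2 the lowest of all 6, and its log2 fold change was 0.11 (SE 0.14, edgeR adjusted p = 0.574) over 6 libraries and 0.20 (SE 0.17, edgeR adjusted p = 0.379) over 4.

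Large subunit assembly genes had a median log2 fold change of -0.88 over 6 libraries and -1.19 over 4, where 5 of 11 fell (Pes1, Nop2, Nle1, Ddx18 and Rrp15). Pes1, Bop1 and Wdr12 form the PeBoW complex, which is needed to process the large subunit RNA. Pes1 was at 96.5, 146 and 125 CPM in WT and at 49.5, 91.7 and 46.3 CPM in KO, with a log2 fold change of -0.97 (SE 0.32, edgeR adjusted p = 0.184) over 6 libraries and -1.33 (SE 0.24, edgeR adjusted p = 0.0361) over 4. Bop1 was at 68.8, 92.7 and 89.9 CPM in WT and at 49.2, 60.6 and 52.4 CPM in KO, with a log2 fold change of -0.63 (SE 0.17, edgeR adjusted p = 0.184) over 6 libraries and -0.66 (SE 0.20, edgeR adjusted p = 0.0701) over 4. Wdr12 was at 52.9, 73.1 and 66.6 CPM in WT and at 35.8, 50.2 and 38.4 CPM in KO, with a log2 fold change of -0.63 (SE 0.20, edgeR adjusted p = 0.184) and -0.76 (SE 0.21, edgeR adjusted p = 0.0622). In all 3 genes every KO library lay below every WT library, but Pes1 alone was called over 4 libraries, and a difference between the 3 was not tested.

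Rrp15, a factor of early large subunit particles, had the lowest 6-library log2 fold change of the group, and Nop16 the highest. Rrp15 was at 28.4, 47.6 and 40.7 CPM in WT and at 11.5, 27.0 and 8.72 CPM in KO, with a log2 fold change of -1.31 (SE 0.47, edgeR adjusted p = 0.184) over 6 libraries and -1.91 (SE 0.33, edgeR adjusted p = 0.0344) over 4. Nop16 was at 28.8, 41.8 and 37.0 CPM in WT and at 17.1, 32.8 and 20.2 CPM in KO, with KO 2 above WT 1, and its log2 fold change was -0.62 (SE 0.29, edgeR adjusted p = 0.197) and -0.91 (SE 0.25, edgeR adjusted p = 0.0609). The helicase gene Ddx18 fell by 1.91 over 4 libraries, Nop2, a methyltransferase of large subunit RNA, by 1.42, and Nle1, which encodes Notchless, by 1.33 on the log2 scale. Over 6 libraries their log2 fold changes were -1.24, -1.11 and -0.93, and none was called. Rrp1b (-1.19), Mrto4 (-1.03) and Ebna1bp2 (-0.78) did not pass over 4 libraries (edgeR adjusted p = 0.0561, 0.0503 and 0.0629), nor over 6, where they were at -0.88, -0.71 and -0.63.

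The 6 chaperones and multifunctional proteins had the lowest median log2 fold change of the role groups, -1.30 over 6 libraries and -1.96 over 4, where all 6 fell. Npm1 encodes nucleophosmin, an abundant chaperone of the outer nucleolus. It was at 455, 824 and 627 CPM in WT and at 113, 446 and 86.6 CPM in KO, and the log2 fold change was -1.56 (SE 0.68, edgeR adjusted p = 0.187) over 6 libraries and -2.67 (SE 0.40, edgeR adjusted p = 0.0343) over 4. KO 2 lay just below WT 1, so the groups did not overlap. Because Npm1 has processed pseudogenes, its counts may be uncertain where reads also match a copy. Ncl (chr1:86344719-86359455) encodes nucleolin, which binds the ribosomal RNA precursor, and had the highest CPM of the 44 genes. It was at 936, 1396 and 1232 CPM in WT and at 392, 848 and 372 CPM in KO, a mean of 1188 ± 233 and 537 ± 269 CPM (SD, n = 3) without overlap. Its log2 fold change was -1.15 (SE 0.40, edgeR adjusted p = 0.184) over 6 libraries and -1.60 (SE 0.36, edgeR adjusted p = 0.0464) over 4. Ncl and Npm1 together held 33.2% to 34.6% of the reads on the 44 genes in WT, 24.04% in KO 1, 31.6% in KO 2 and 22.6% in KO 3. The sum over the other 42 genes was 3577 ± 715 CPM in WT and 1989 ± 702 CPM in KO (SD, n = 3), a ratio of 1.799.

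Ddx21, an RNA helicase of Pol I transcription and precursor processing, was at 144, 242 and 239 CPM in WT and at 48.7, 162 and 38.8 CPM in KO. KO 2 lay above WT 1, and the log2 fold change was -1.32 (SE 0.59, edgeR adjusted p = 0.190) over 6 libraries and -2.13 (SE 0.31, edgeR adjusted p = 0.0343) over 4. Gnl3 encodes nucleostemin, a nucleolar GTPase known from stem cells and tumors, and was at 75.2, 137 and 113 CPM in WT and at 30.3, 64.2 and 30.9 CPM in KO. Its groups did not overlap, and the log2 fold change was -1.37 (SE 0.38, edgeR adjusted p = 0.184) over 6 libraries and -1.78 (SE 0.31, edgeR adjusted p = 0.0345) over 4. Pa2g4 encodes a growth regulator that binds ribosomes and their precursors. It was at 153.5, 224 and 209.6 CPM in WT and at 75.7, 177 and 83.9 CPM in KO, with KO 2 above WT 1, and its log2 fold change was -0.80 (SE 0.37, edgeR adjusted p = 0.194) over 6 libraries and -1.24 (SE 0.25, edgeR adjusted p = 0.0403) over 4. Npm3, a relative of Npm1, had the smallest counts of the 44 genes (68 reads in its lowest library). Its log2 fold change was -1.28 (edgeR adjusted p = 0.225) over 6 libraries, with KO 2 inside the WT range, and it fell by 2.30 over 4.

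**Figure D3:**
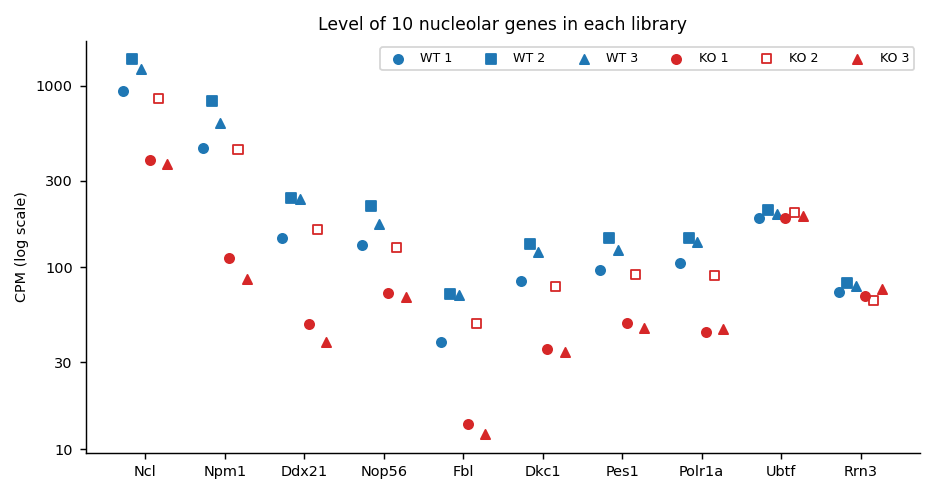
CPM (log scale) of 10 of the genes in each library, with WT in blue, KO in red and KO 2 as an open square. KO 1 and KO 3 lie below all other libraries for 8 of the genes, while all 6 libraries lie close together for Ubtf and Rrn3.

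Levels of different genes can be compared only per transcript length, for which the deposited FPKM were used as means over the 6 libraries. Npm1 was the highest at 314 FPKM, followed by Ncl at 108, Nhp2 at 103, Nop56 at 71.9 and Pa2g4 at 65.3 FPKM. Polr1e was the lowest at 4.90 FPKM, after Utp20 at 7.60 FPKM. The median of the 44 was 24.9 FPKM, and that of all genes of the table was 9.73 FPKM.

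The entry Rn45s, named for the ribosomal RNA precursor that Pol I makes, was added after its values were seen. It was at 5387, 5442 and 8752 CPM in WT and at 4462, 4005 and 7462 CPM in KO, so KO 3 lay above WT 1 and WT 2. The log2 fold change was -0.30 (SE 0.47, edgeR adjusted p = 0.639) over 6 libraries and 0.14 (SE 0.69, edgeR adjusted p = 0.881) over 4. How ribosomal RNA was removed before sequencing is not given in the sources used here. Whether Rn45s reads that map to many copies were kept is not clear, since the sources differ on how reads were handled. Reads of the precursor and of mature ribosomal RNA left in a library were not told apart, so these values do not measure the output of Pol I. Myc was at 166, 292 and 191 CPM in WT and at 8.74, 129.5 and 4.15 CPM in KO, with KO 2 the highest KO library as for 42 of the 44 nucleolar genes. Its log2 fold change was -2.19 (SE 1.25, edgeR adjusted p = 0.247) over 6 libraries and -5.14 (SE 0.52, edgeR adjusted p = 0.0343) over 4, and its part in the nucleolar values was not tested.

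Other genes of the same pathway, 112 in 4 lists, were lower by smaller amounts. Of these, 97 had a lower mean in KO and 15 a higher mean over 6 libraries, with 0 called and a median log2 fold change of -0.55. At an unadjusted p under 0.05 (edgeR's quasi-likelihood test), 54 were lower, beside 11.9% of all genes tested. Over 4 libraries 35 of the 112 fell (31.2%), beside 13.9% of all genes tested, 0 rose, and the median was -0.76. Among 44 other small subunit factors 15 fell, with a median of -0.61 over 6 libraries and -0.82 over 4. Aatf, a processome factor, was the lowest over 6 libraries at -1.45 (SE 0.46, edgeR adjusted p = 0.184) and was at -2.03 (SE 0.27, edgeR adjusted p = 0.0343) over 4, where Wdr46 was the lowest at -2.10. Nol6 was the highest in both at 0.53 (SE 0.23, edgeR adjusted p = 0.188) and 0.71 (SE 0.22, edgeR adjusted p = 0.0728). Among 48 other large subunit factors 16 fell, with a median of -0.55 over 6 libraries and -0.70 over 4. Ftsj3, a methyltransferase, was the lowest at -1.45 (SE 0.48, edgeR adjusted p = 0.184) and -2.05 (SE 0.34, edgeR adjusted p = 0.0343), and Gnl3l the highest at 0.52 (SE 0.30, edgeR adjusted p = 0.249) and 0.65 (SE 0.31, edgeR adjusted p = 0.156). The direction was thus shared by most of the pathway in KO 1 and KO 3, with a smaller median than in the 44 genes, a difference that was not tested.

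Of 10 other genes of the Pol I machinery 2 fell over 4 libraries, and the median log2 fold change was -0.37 over 6 libraries and -0.56 over 4. The share of all genes tested that fell over 4 libraries was 13.9%, and the small counts of this and the next lists lie near it. Mybbp1a was the lowest at -1.03 (SE 0.32, edgeR adjusted p = 0.184) and -1.43 (SE 0.26, edgeR adjusted p = 0.0356), and Taf1b, a subunit of the promoter selectivity factor, the highest at 0.12 (SE 0.14, edgeR adjusted p = 0.531) and 0.08 (SE 0.19, edgeR adjusted p = 0.743). The RNA exosome, which trims ribosomal RNA, had 2 of 10 genes that fell and a median of -0.64 and -0.71, between Exosc8 (-1.06) and Exosc10 (-0.36) over 6 libraries. Subunits of Pol II alone and of Pol III alone had medians close to those of these 10 Pol I genes. Their medians were smaller in size than the -0.97 and -1.33 of the 7 Pol I transcription genes, a difference that was not tested. Of 7 subunits that Pol II alone uses 0 fell over 4 libraries, although 6 had a log2 fold change below 0. Their median was -0.39 and -0.55, and they lay between Polr2d (-0.57) and Polr2g (0.18) over 6 libraries. Of 11 subunits of Pol III alone 1 fell, Polr3c, with a median of -0.41 and -0.48, between Polr3c (-0.78) and Polr3gl (0.06) over 6. Of 5 subunits that all 3 polymerases share 1 fell, Polr2f, with a median of -0.15 and -0.38, between Polr2f (-0.94) and Polr2l (-0.05) over 6. None of the genes in these lists rose over 4 libraries, and over 6 libraries none was called in either direction.

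Markers of glioma cells, proliferation and neurons moved with the same libraries as the nucleolar genes. All 7 glioma cell markers (Olig2, Sox2, Pdgfra, Nes, Sox11, Sox4 and Egfr) had lower means in KO and fell over 4 libraries, where 13.9% of all genes tested fell. Their summed level was 1005 to 1545 CPM in WT and 343, 1118 and 252 CPM in KO 1, KO 2 and KO 3. Of 20 proliferation genes, 20 had lower means and 19 fell over 4 libraries, with a sum of 1887 to 3532 CPM in WT and 252, 2075 and 124 CPM in KO. Both lists were below all WT libraries in KO 1 and KO 3 and inside the WT range in KO 2, where the sum over the nucleolar genes lay just below WT 1. Of 15 neuron markers, 15 had higher means in KO and 0 were called, with a sum of 2844 to 7124 CPM in WT and 15868, 6158 and 18484 CPM in KO. Of 10 markers of myelinating oligodendrocytes, 10 had higher means and 0 were called, with a sum of 1419 to 3524 CPM in WT and 7846, 3352 and 4058 CPM in KO. Summed markers were 2981 to 3703 CPM in WT and 4032 to 5866 CPM in KO for astrocytes (6 of 8 higher over 6 libraries). Over 4 libraries, Gja1 rose by 1.42 and Gfap fell by 2.26 on the log2 scale. For microglia and macrophages the sum was 978 to 1045 CPM in WT and 596, 1361 and 544 CPM in KO 1, KO 2 and KO 3. KO 2 thus lay above every WT library, and KO 1 and KO 3 below (6 of 10 genes lower over 6 libraries, 5 fell over 4). For endothelial cells the sum was 229 to 272 CPM in WT and 196 to 264 CPM in KO (6 of 9 lower, 0 called, with KO 1 inside the WT range). For T cells it was 25.96 to 29.4 CPM in WT and 26.3, 38.1 and 5.09 CPM in KO 1, KO 2 and KO 3 (5 of 6 lower over 6 libraries, 5 fell over 4). KO 1 lay inside the WT range for T cells and KO 2 above it. No marker was at 0 in any library. The part of tumor and brain cell content in the nucleolar values was not tested.

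**Figure D4:**
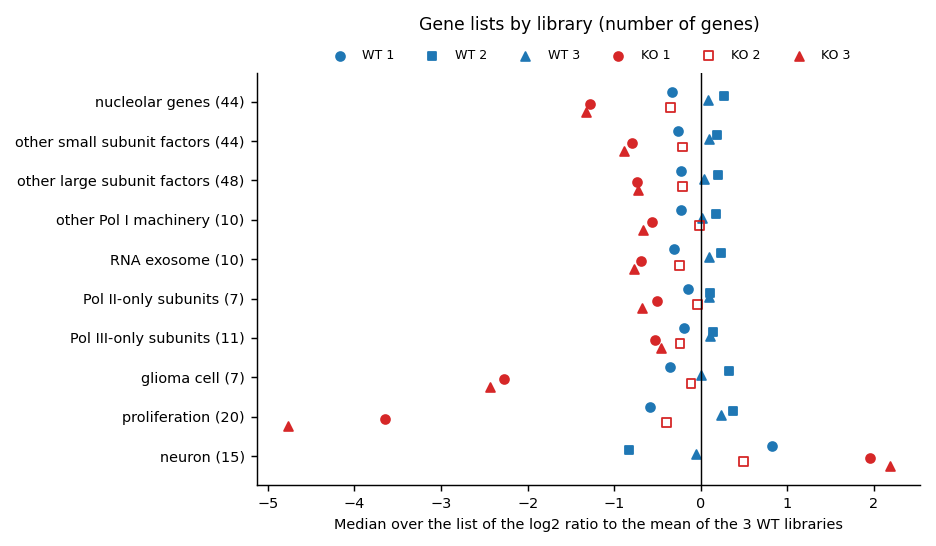
Median over each gene list of the log2 ratio to the mean of the 3 WT libraries (x axis) for the 6 libraries, with the number of genes in brackets. KO 1 and KO 3 lie left of all other libraries for every list except neurons, where they lie right of them. KO 2 lies close to WT 1 for the nucleolar genes.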

How the data were processed

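The deposited table held raw read counts per gene, which the authors made without normalization, and FPKM of every library, also from the authors. The sources differ on how the reads were handled: per the labels, the NEBNext Ultra kit, CASAVA 1.8.2, edgeR and mm10 were used, whereas the methods name the Ovation Ultralow kit, HTSeq counts of uniquely mapped reads and hg38, and the reporting summary names STAR. The genes listed are mouse genes. Whether counting used strand is not given in the sources used here. No gene of the table has reads in fewer than 4 libraries, and the highest count of each gene is 5 or more. The deposited table also holds the authors' own fold changes, p-values, false discovery rates and scaled counts, which were not used.

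The fits used edgeR 4.0.16 under R 4.3.3 (filterByExpr with a minimum count of 10 and a minimum total of 15, TMM factors, glmQLFit and glmQLFTest), over 6 libraries (16166 genes tested) and over 4 (16183 genes), with Benjamini-Hochberg adjustment over all genes. Group labels followed the sample titles. CPM used TMM factors over 6 libraries, and the SE of a log2 fold change was taken as its size divided by the root of F. All 44 nucleolar genes passed the filter in both fits, and FPKM were averaged only. Depth was 17632070 to 22241832 reads per library. PCR copies were not marked, so counts carry more than counting error. The self-test of the whole fit was run on simulated data with known fold changes for both designs.

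The 44 genes and all 20 gene lists were chosen with earlier results of these data known. A further glioma cell marker is not reported here. Per-library values were given by rule for 17 nucleolar genes picked by name and for the lowest and highest log2 fold change over 6 libraries in each role group, and in other pathway and polymerase lists the log2 fold changes of the lowest and highest gene over 6 libraries. Wdr46, Gja1 and Gfap were named after their values were seen. Alternatives were RLE scaling, no filter or a filter at a mean of 10 counts, DESeq2 1.42.0, edgeR's exact test, a fold change above 4 as well, each library left out and the replicate number as a block. Gene positions came from RefSeq genes of GRCm38.p6 by symbol, and 7 genes of other lists were found under an older symbol. Python 3.11.15 (pandas 2.3.3; numpy 2.4.6) made the tables, and matplotlib 3.10.9 drew the figures.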

Additional observations from a re-analysis of the deposited data

How the results depend on the processing

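Over 6 libraries, 0 of the 44 nucleolar genes were called lower, and this stayed 0 under RLE scaling, no filter, a filter at a mean of 10 counts, edgeR's exact test and a fold change above 4 as well. DESeq2 called 6, the 4 libraries of the study's table gave 29, and leaving out each library in turn gave 0 to 41, with 41 only without KO 2. The median log2 fold change over 6 libraries was -0.95, it was -1.32 over the 4 libraries, and it ranged from -1.30 (without KO 2) to -0.77 (without KO 3) with a library left out. Over 4 libraries 29 were called lower, beside 28 under RLE scaling, 38 by DESeq2, 40 by edgeR's exact test and 4 with a fold change above 4 as well, and leaving out each library gave 0 (without KO 3) to 41 (without WT 1). The median over 4 libraries was -1.32 and ranged from -1.59 (without WT 1) to -0.96 (without WT 2). No nucleolar gene was called higher under any of these settings. Each fit of the 4 libraries with a library left out holds a lone KO or WT library, which is assumed to vary like the other group, and this covers its calls of 0 to 41. With a fold change above 4 as well, 1008 of the 16081 genes tested in both comparisons were called lower over 4 libraries. Over all genes, the exact test over 6 libraries called 46 lower and DESeq2 431, where the quasi-likelihood test called 0. Over 4 libraries it called 2244 of all genes lower, the exact test 3590, and leaving out a library gave 252 (without KO 3), 926 (without KO 1), 2042 (without WT 2) and 4508 (without WT 1). The log2 fold change of Ubtf changed sign, to 0.010 under RLE scaling and, with a library left out, ranged from -0.068 to 0.011 over 6 libraries and from -0.11 to 0.0075 over 4, positive without WT 2. The cause of these changes was not tested. Of the nucleolar genes with per-library values, 0 others changed sign. Their values under the alternatives kept direction and side of the threshold in 87 cases over 4 libraries, with 26 calls lost and 6 gained, and in 169 cases over 6 libraries, with 21 calls gained. The lost calls were all without KO 1 or KO 3, and the gained calls all without WT 1 (4 libraries) or KO 2 (6 libraries).

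Same-numbered tumors did not deviate together in all pairs (Pearson correlation across 16166 genes of 0.55 for number 1, 0.59 for number 2 and -0.21 for number 3), and KO 3 correlated best with WT 1. Against each WT library, KO 2 had the opposite sign to KO 1 and KO 3. Such values cannot show or exclude a pairing by number, and the labels state none. With the replicate number as a block over 6 libraries, 0 of the 44 were called, beside 0 of 16166 genes tested called lower. The lowest adjusted p of the 44 was 0.065 (edgeR). Their median log2 fold change was -0.99, and that of all genes tested was -0.03. No paired analysis was possible because the groups share only number 1 in the 4 libraries.

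Depth was no limit for these genes, whose lowest count was 68 reads, above the 3 reads that a count of 0 allows. The number of tumors, the label of KO 2 and the cell content of the tumors limit what the values show.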

Other observations

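Close relatives of 3 nucleolar genes were picked after their values were seen, and each was higher in KO 1 and KO 3 than in every WT library. Fbll1, a relative of fibrillarin, was at 17.4, 7.35 and 8.09 CPM in the WT libraries and at 30.5, 14.7 and 31.2 CPM in the KO libraries, in order of their numbers. This gave a log2 fold change of 1.22 (SE 0.45, edgeR adjusted p = 0.184) over 6 libraries and 1.31 (SE 0.44, edgeR adjusted p = 0.0809) over 4, beside -1.27 and -2.09 for Fbl. Gnl3l, a relative of Gnl3, was at 215, 141 and 148 CPM in WT and at 247, 163 and 312 CPM in KO, with a log2 fold change of 0.52 (SE 0.30, edgeR adjusted p = 0.249) over 6 libraries and 0.65 (SE 0.31, edgeR adjusted p = 0.156) over 4, beside -1.37 and -1.78 for Gnl3. Rrp1, a relative of Rrp1b, was at 259, 205 and 231 CPM in WT and at 329, 251 and 386 CPM in KO, with a log2 fold change of 0.48 (SE 0.22, edgeR adjusted p = 0.191) and 0.63 (SE 0.27, edgeR adjusted p = 0.127), beside -0.88 and -1.19 for Rrp1b. None of the 3 relatives was called, and the difference within each pair was not tested. How many of all genes show this order was not counted. Not every relative went this way, since Npm3 fell with Npm1 over 4 libraries (-2.30 and -2.67). Summed neuron markers were likewise lowest in WT 2 (2844 CPM) and highest in KO 1 and KO 3 (15868 and 18484 CPM). The part of brain cell content in these values was not tested. WT 2 was the lowest library for all 3 relatives, where for 42 of the 44 nucleolar genes it was the highest WT library.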
